A study of Homo sapiens with 12 samples.

Results

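Trichostatin A (TSA) was compared with GSK126 in 3 human carcinoma lines, with 1 poly(A) RNA library per line and compound. The comparison held 6 of the 12 libraries of the series: every library labelled as treated with TSA (n = 3) and every library labelled as treated with GSK126 (n = 3), paired by cell line. The lines were MHCC97H, derived from a hepatocellular carcinoma, A549, a lung adenocarcinoma line, and HCT116, a colorectal carcinoma line. TSA was given at 1 µM and GSK126 at 50 µM. MHCC97H and A549 grew in DMEM and HCT116 in RPMI, so line and medium cannot be told apart. The untreated library of each line (n = 3) served as a reference for direction. The other 3 libraries, treated with S2101, an LSD1 inhibitor, were not compared. They entered the filter on low counts, the scaling between libraries, the shared fit with its estimate of spread, and mean levels over all libraries. The series asked which genes and proteins become detectable after such treatments, and this comparison asks where 2 inhibitors of chromatin enzymes left different transcript levels. The doses differ, the sources used here give neither a treatment time nor a vehicle, and a condition had no repeat culture within a line.

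TSA blocks the zinc-dependent histone deacetylases, enzymes that remove acetyl groups from lysines of histones and of many other proteins. GSK126 competes with S-adenosylmethionine at EZH2, the catalytic subunit of Polycomb repressive complex 2 (PRC2), which places methyl groups on lysine 27 of histone H3. Acetylated histones are typical of active promoters and enhancers, and methylated lysine 27 of silent developmental genes. Loss of either enzyme activity is therefore known for raising genes that were silent.

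TSA and GSK126 left different transcriptomes. In edgeR's quasi-likelihood F test, 2490 of 16929 genes tested were higher under TSA (14.7%) and 2411 were lower (14.2%) at a Benjamini-Hochberg adjusted p under 0.05, together 29.0%. Genes past that threshold are the called genes below. Counts of called members of a list are to be read beside these shares over all genes. The median absolute log2 difference of called genes was 1.25, and 1071 of the higher and 302 of the lower genes differed at least 4-fold. The calls rest on how unevenly the lines responded to the 4 conditions, a spread estimated over all 12 libraries. From the 6 libraries alone, 101 genes were called higher and 63 lower. Without A549 the same test called 0 genes (lowest adjusted p = 0.055), with 4193 genes at an unadjusted p under 0.05 against 7217 with all lines. No call named below was therefore kept without A549. Without A549 the median log2 difference was -1.06 for sterol synthesis, -1.37 for fatty acid synthesis, 2.60 for known responders to deacetylase inhibition and 3.38 for clustered histone genes (27 tested in place of 42), against -1.10, -1.42, 2.32 and 3.4 with all lines. Against untreated cells, TSA had 2947 genes higher and 2904 lower. GSK126 had 0 called genes in the same test, 2809 at an unadjusted p under 0.05, and 558 higher and 639 lower in DESeq2. Values against untreated cells are given below for direction only.

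Libraries held 14468304 to 16345226 counts in the 6 TSA and GSK126 libraries, so 3 reads stood for 0.184 to 0.207 CPM, the counts scaled to a common library total. The nuclear non-coding transcript MALAT1 took 0.807, 1.12 and 0.801% of counts under TSA in MHCC97H, A549 and HCT116, and 0.462, 0.706 and 0.573% under GSK126. The part of this difference in the results was not tested. Genes that were at 0 reads untreated and at least 10 CPM under TSA were seen at low level in the GSK126 libraries. In A549, all 15 such genes had a read, and their summed level was 2.02% of that under TSA. In MHCC97H 10 of 14 such genes had a read, with a summed level of 0.366%, and in HCT116 the 1 such gene stood at 8.05%. The part of this low level in the results was not tested. Without the GSK126 library of A549, 968 genes were called higher and 1225 lower. Called genes differed by level and class. In the lowest 20% of genes by mean level over all libraries, 20.3% were called higher and 2.01% lower, and in the highest 20% 10.3% were called higher and 27.2% lower. Long non-coding RNA genes were called higher in 14% of 1149 cases and lower in 4.70%, against 15.0% and 15.4% of 14887 protein-coding genes.

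Genes of sterol and fatty acid synthesis were lower under TSA than under GSK126 in each line. Cells make cholesterol from acetyl-CoA through the mevalonate pathway, and the transcription factor SREBP2 (gene SREBF2) raises the pathway's genes when sterols in the endoplasmic reticulum run low. SREBP1 (gene SREBF1) does the same for fatty acid synthesis. Of 20 sterol synthesis genes, 11 were called lower and 2 higher. In all 3 lines 15 were lower, against 4112 of all 16929 genes tested. Calls in this list numbered 0 higher and 8 lower without MHCC97H, 1 and 10 without the GSK126 library of A549, and 0 without A549. The list's median log2 difference was -1.10, against 0.06 for all genes tested. Within MHCC97H, A549 and HCT116 it was -0.45, -0.73 and -1.67. Of 12 fatty acid synthesis genes tested, 7 were called lower and 2 higher, with a median of -1.42 and -0.71, -1.19 and -1.85 within the lines (0 higher and 5 lower without MHCC97H, 0 and 6 without the GSK126 library of A549). The sterol list stood at a median of 0.62 under TSA and 1.55 under GSK126 against untreated cells, and the fatty acid list at -0.079 and 0.99. In bulk RNA, fewer cells that express a gene and less RNA per cell cannot be told apart. Values per library are given below in the order MHCC97H, A549, HCT116, as CPM scaled by TMM.

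ACAT2, the thiolase that starts the mevalonate pathway (chromosome 6, 159762045 to 159779112 of GRCh38.p14), read 21.6, 30.8 and 20.6 CPM under TSA and 114, 127 and 67.5 CPM under GSK126. CYP51A1, lanosterol demethylase (chromosome 7, 92112153 to 92134803), read 104, 118 and 78.3 CPM under TSA and 428, 568 and 345 CPM under GSK126. MSMO1, the methylsterol monooxygenase of the next steps (chromosome 4, 165327669 to 165343164), read 129, 70.5 and 25.9 CPM under TSA and 332, 312 and 200.4 CPM under GSK126. For these 3 enzymes every TSA library lay below every GSK126 library. The log2 differences were -2.05 ± 0.20 (SE, adjusted p = 0.00108) for ACAT2, -2.16 ± 0.18 (SE, adjusted p = 0.00108) for CYP51A1 and -2.15 ± 0.30 (SE, adjusted p = 0.0025) for MSMO1. In untreated cells ACAT2 read 56.3, 47.7 and 34.5 CPM and CYP51A1 228, 171 and 113 CPM. In each line the untreated level of ACAT2 and CYP51A1 lay above TSA and below GSK126. TM7SF2, a sterol reductase of the same pathway, went the other way in 2 lines, with 40.0, 101 and 35.7 CPM under TSA and 7.52, 17.6 and 39.0 CPM under GSK126. Its groups overlapped through HCT116, and the log2 difference was 1.79 ± 0.53 (SE, adjusted p = 0.0328). PMVK, phosphomevalonate kinase, was the other member called higher.

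Sterol uptake and its regulators were split. MYLIP, a ubiquitin ligase of sterol uptake, read 23.9, 29.8 and 12.1 CPM under TSA and 6.38, 6.01 and 4.90 CPM under GSK126. Its TSA libraries lay above all GSK126 libraries (log2 difference 1.90 ± 0.35 SE, adjusted p = 0.00602). ABCG1, a sterol exporter, read 34.5, 13.7 and 3.19 CPM under TSA and 1.20, 4.72 and 0.884 CPM under GSK126 and was called higher (2.50 ± 0.76 SE, adjusted p = 0.0356), with overlap between the groups. Of the 13 genes on this list 4 were called higher and 3 lower, against 14.7% and 14.2% of all genes. The list's median of 0.51 was 0.59, 0.30 and -0.77 within the lines. SREBF2 itself read 97.1, 103 and 164 CPM under TSA and 162, 222 and 502 CPM under GSK126, lower under TSA within each line (log2 difference -1.14 ± 0.17 SE, adjusted p = 0.00291), with overlap between lines.

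Among lipogenic genes, ELOVL6, the elongase of C16 fatty acids, read 15.4, 12.8 and 29.0 CPM under TSA and 134, 201 and 187 CPM under GSK126. SCD, the stearoyl-CoA desaturase, read 1176, 1149 and 482 CPM under TSA and 1894, 5856 and 6288 CPM under GSK126. FADS2, the delta-6 desaturase, read 83.7, 118 and 5.77 CPM under TSA and 648, 1043 and 21.0 CPM under GSK126. ELOVL6 and SCD did not overlap between groups, whereas FADS2 was far lower in HCT116 than in the other lines under either compound. Their log2 differences were -3.21 ± 0.33 (SE, adjusted p = 0.00128), -2.21 ± 0.47 (SE, adjusted p = 0.00963) and -2.70 ± 0.26 (SE, adjusted p = 0.00108). SREBF1 ran against its target genes in 2 lines, with 1361, 2298 and 291 CPM under TSA and 152, 269.5 and 321 CPM under GSK126. Its log2 difference was 2.32 ± 0.65 (SE, adjusted p = 0.0272), while HCT116 stood apart with a within-line difference of -0.14. The plot of lipid genes by library shows both patterns. Without MHCC97H, TM7SF2, ABCG1 (log2 1.60), MYLIP and SREBF1 lost their calls. ABCG1 lost its call without HCT116 as well, TM7SF2 and SREBF1 lost theirs without the GSK126 library of A549, and none of the genes of this and the 2 preceding paragraphs kept its call without A549.

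**Figure D1:**
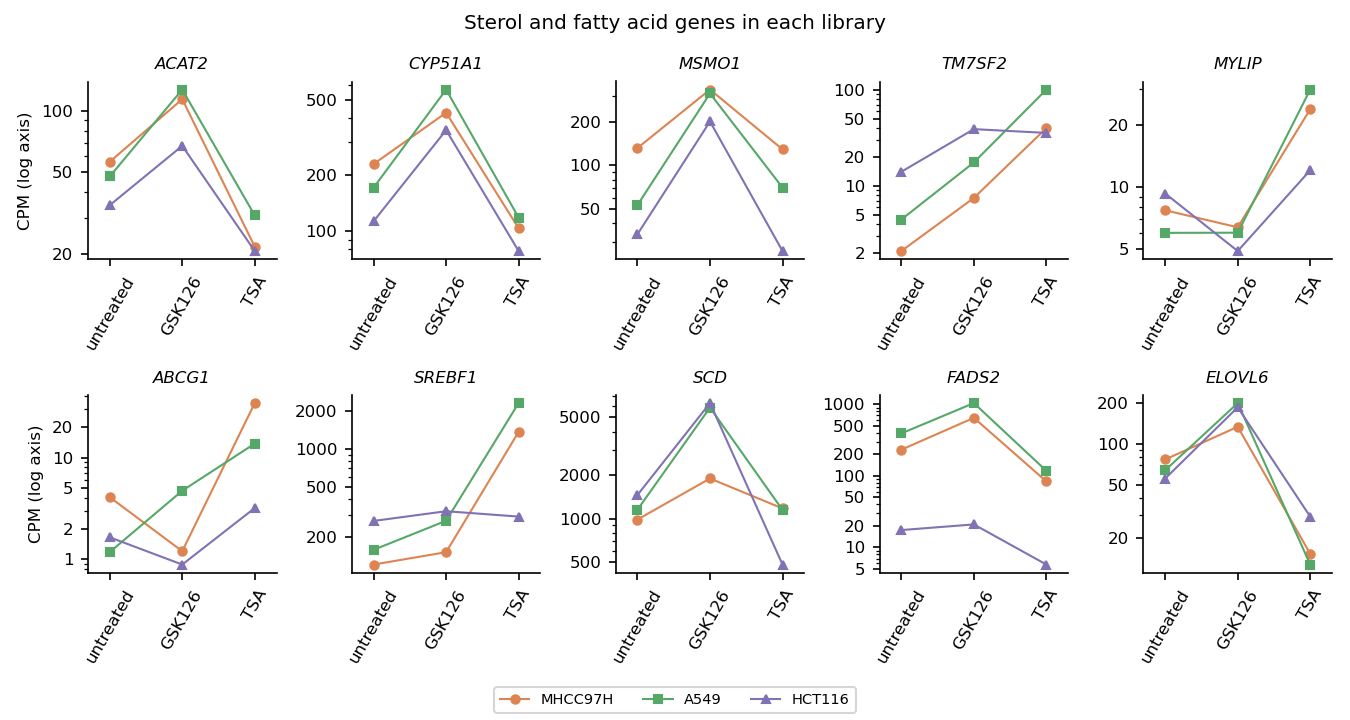
CPM (y axes, log scale) of 10 sterol and fatty acid genes in each untreated, GSK126 and TSA library (x axes), with 1 line per cell line. ACAT2, CYP51A1 and ELOVL6 peak under GSK126 and lie under the untreated level with TSA in all 3 lines, and SREBF1 is high under TSA in MHCC97H (1361 CPM) and A549 (2298 CPM) but not in HCT116 (291 CPM).

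Promoter sequence is shown for the sterol genes because many of them were called in 1 direction. RefSeq (GRCh38.p14) promoters, from 250 bases before to 50 after the first start site listed per gene, were matched for 15 of the 20 sterol synthesis genes. The box CCAAT, on either strand, is the site of the factor NF-Y, a known partner of SREBP proteins. It occurred in 12 of the 15, against 35.7% of 27305 promoters of the same length. The box was as frequent in lists with other calls, in 18 of 22 matched mitosis genes, of which 0 were called, and in 55 of 65 matched clustered histone genes, of which those called were higher. It occurred in 12 of 21 matched genes of the ATF4 list. The sterol regulatory element searched as TCACNCCAC occurred in 0 of the 15 and in 1.15% of all promoters, and in 1 of 10 matched genes of the uptake and sensing list, SREBF2. The windows below show the element of SREBF2 and the box nearest the start site of 7 genes called lower and of TM7SF2, which was called higher. Capitals mark the motif, or its reverse complement (ATTGG).
SREBF2 (chr22:41832962-41832991, plus strand): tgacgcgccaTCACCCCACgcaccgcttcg
MVD (chr16:88663159-88663188, minus strand): ggctcgcacgggCCAATcctgtggtagcgc
FDPS (chr1:155308803-155308832, plus strand): tcccgcgggcacATTGGgagttgtagtcta
MSMO1 (chr4:165327623-165327652, plus strand): agctctcgcaggCCAATaacgacaggacgg
NSDHL (chrX:152830967-152830996, plus strand): cgccgagctgggCCAATcctcttggtggag
HSD17B7 (chr1:162790698-162790727, plus strand): ggccgtactctgATTGGtgacgggtgaggc
EBP (chrX:48521766-48521795, plus strand): cttcgcttcaccATTGGctcgctccgtaag
DHCR7 (chr11:71448424-71448453, minus strand): ggtccgcctccgATTGGcaggcaatcgctg
TM7SF2 (chr11:65111786-65111815, plus strand): ccccgagcgccgATTGGctggtgtgctggg

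With all lines, the called genes of the amino acid response were lower under TSA. ATF4 is a transcription factor made when amino acids run short or the endoplasmic reticulum is stressed, and it raises amino acid transporters, synthetic enzymes and stress regulators. Of 25 genes tested on the ATF4 list 9 were called lower and 0 higher. In all 3 lines 13 were lower, against 4112 of all 16929 genes tested. Calls on this list numbered 0 higher and 5 lower without MHCC97H, and 0 and 5 without the GSK126 library of A549. The median log2 difference was -0.81, with -0.34, -0.75 and -1.06 within the lines, and it stood at -0.72 under TSA and 0.34 under GSK126 against untreated cells. SLC7A11, the cystine transporter (chromosome 4, 138164097 to 138242349), read 93.7, 46.4 and 42.0 CPM under TSA and 702, 744 and 338 CPM under GSK126. TRIB3, a pseudokinase that restrains ATF4 signalling (chromosome 20, 380760 to 397559), read 37.0, 17.4 and 19.4 CPM under TSA and 275, 402 and 148 CPM under GSK126. NUPR1, a stress-response chromatin protein, read 5.10, 0.432 and 0 CPM under TSA and 80.7, 28.0 and 0.952 CPM under GSK126. The groups did not overlap for SLC7A11 and TRIB3, and NUPR1 was low in HCT116 under either compound. Log2 differences were -3.29 ± 0.27 (SE, adjusted p = 0.00108) for SLC7A11, -3.47 ± 0.47 (SE, adjusted p = 0.00242) for TRIB3 and -4.77 ± 0.59 (SE, adjusted p = 0.00209) for NUPR1. DDIT4, an inhibitor of the growth kinase mTOR, read 53.3, 97.6 and 41.3 CPM under TSA and 99.7, 456 and 439 CPM under GSK126 (-2.07 ± 0.69 SE, adjusted p = 0.0489). The genes of this list did not move as a block. ASNS, asparagine synthetase, read 306, 145 and 258 CPM under TSA and 52.8, 101 and 279 CPM under GSK126, higher under TSA in MHCC97H and A549 and lower in HCT116, and it was not called (1.15, adjusted p = 0.101).

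The composite ATF4-C/EBP element, searched as TGATGNAA on either strand, occurred in 6 of 21 matched promoters of this list and in 3.67% of all 27305. It is shown for the 5 tested genes that hold it, since they differ in their call.
SLC7A1, lower (chr13:29595663-29595692, minus strand): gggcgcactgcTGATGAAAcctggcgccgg
SLC3A2, lower (chr11:62881719-62881748, plus strand): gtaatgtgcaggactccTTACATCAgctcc
ASNS, not called (chr7:97872458-97872487, minus strand): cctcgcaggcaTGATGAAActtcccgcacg
ATF3, not called (chr1:212565205-212565234, plus strand): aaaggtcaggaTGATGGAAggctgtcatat
CHAC1, not called (chr15:40953251-40953280, plus strand): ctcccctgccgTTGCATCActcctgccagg
Capitals mark the element, or its reverse complement in SLC3A2 and CHAC1. SLC7A1, the cationic amino acid transporter, read 27.6, 45.7 and 107 CPM under TSA and 65.9, 141 and 316 CPM under GSK126 and was lower under TSA in each line (-1.48 ± 0.17 SE, adjusted p = 0.00177). SLC3A2, the heavy chain of amino acid transporters, read 152, 286 and 273 CPM under TSA and 348, 505 and 369.9 CPM under GSK126 (-0.79 ± 0.25 SE, adjusted p = 0.0423). ATF3, a stress-induced transcription factor, read 144, 36.9 and 141 CPM under TSA and 29.4, 32.6 and 87.2 CPM under GSK126 and was higher under TSA in each line, without a call (0.92, adjusted p = 0.212). CHAC1, a glutathione-degrading enzyme, read 37.3, 18.6 and 2.89 CPM under TSA and 5.25, 11.2 and 38.8 CPM under GSK126, with opposite differences in MHCC97H and HCT116. Genes with the same element thus had values on either side of 0.

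Aminoacyl-tRNA synthetases load amino acids onto tRNAs and include known ATF4 targets. They were called lower in 6 and higher in 2 of 20 cases, against 14.2% and 14.7% of all genes. The list's median was -0.15. Calls numbered 0 higher and 1 lower without MHCC97H, and 0 and 2 without the GSK126 library of A549. IARS, for isoleucine, read 241, 167 and 173 CPM under TSA and 316, 394 and 503 CPM under GSK126, and NARS, for asparagine, read 181, 138 and 117 CPM under TSA and 265, 216 and 267 CPM under GSK126. Neither gene overlapped between groups, with log2 differences of -1.03 ± 0.21 (SE, adjusted p = 0.00837) and -0.79 ± 0.16 (SE, adjusted p = 0.00776). DARS, for aspartate, was lower (-0.86, adjusted p = 0.0289) and HARS, for histidine, higher (0.68, adjusted p = 0.0159). Of the called genes in this and the 2 preceding paragraphs, DDIT4, SLC3A2, DARS, NARS and HARS lost their calls without MHCC97H, and DDIT4, SLC3A2, DARS and HARS without the GSK126 library of A549. None kept its call without A549, and DDIT4, SLC3A2 and DARS lost theirs without the S2101 library of A549.

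Most antioxidant genes were lower under TSA in MHCC97H and A549. NRF2 (gene NFE2L2) raises genes that make glutathione and NADPH. Of 20 listed genes 7 were called lower and 0 higher, with a median log2 difference of -0.81, and -0.94, -1.02 and -0.24 within the lines (0 higher and 0 lower without MHCC97H, 0 and 2 without the GSK126 library of A549). Without HCT116, 3 were called higher and 11 lower. HMOX1 (1.21 and 0.68), SRXN1 (1.42 and 1.18) and GCLC (0.70 and 0.52) were higher under TSA within both MHCC97H and A549. AKR1C1, an aldo-keto reductase whose reads may be shared with close copies, read 353, 192 and 1.38 CPM under TSA and 1391, 1237 and 1.77 CPM under GSK126. GCLM, a subunit of the rate-limiting enzyme of glutathione synthesis, read 123, 62.1 and 34.8 CPM under TSA and 462, 209 and 53.4 CPM under GSK126. PGD, which makes NADPH in the pentose phosphate pathway, read 384, 397 and 191 CPM under TSA and 1065, 1572 and 241 CPM under GSK126. All 3 were lower under TSA within each line, with small differences in HCT116 and overlap between lines. Log2 differences were -1.87 ± 0.46 (SE, adjusted p = 0.0169), -1.34 ± 0.38 (SE, adjusted p = 0.0282) and -1.16 ± 0.34 (SE, adjusted p = 0.033), and AKR1C2 stood at -1.56 (adjusted p = 0.0472). The unfolded protein response restores folding in the endoplasmic reticulum. Of 17 of its genes, 2 were called lower and 1 higher (median -0.13), against 14.2% and 14.7% of all genes. Medians within the lines were 0.35, 0.33 and -0.62. Without HCT116, 5 were called higher and 1 lower, without MHCC97H 0 and 2, and without the GSK126 library of A549 0 and 1. XBP1, the central transcription factor of this response, read 17.2, 11.8 and 26.9 CPM under TSA and 92.2, 79.4 and 95.3 CPM under GSK126, with no overlap (-2.31 ± 0.32 SE, adjusted p = 0.00254). CALR, the chaperone calreticulin, was higher (0.83, adjusted p = 0.0212) and DNAJB9, a co-chaperone, lower (-1.10, adjusted p = 0.0447). XBP1 alone of these 7 called genes kept its call without MHCC97H and without the GSK126 library of A549, and none did without A549. DNAJB9 stood at -0.60 and AKR1C2 at -0.91 without A549. AKR1C2 and DNAJB9 also lost their calls without the S2101 library of A549, and DNAJB9 without HCT116.

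Inflammatory genes were lower under TSA and interferon genes were mixed. NF-kB raises chemokines, cytokines and its own inhibitor NFKBIA. Of 17 genes tested on this list 6 were called lower and 0 higher. In all 3 lines 12 were lower, against 4112 of all 16929 genes tested. Calls on this list numbered 0 higher and 3 lower without MHCC97H, and 0 and 4 without the GSK126 library of A549. The median log2 difference was -1.35, with -0.50, -1.61 and -0.67 within the lines, and it stood at -0.063 under TSA and 1.27 under GSK126 against untreated cells. NFKBIA (chromosome 14, 35401513 to 35404749) read 9.87, 30.5 and 10.5 CPM under TSA and 49.5, 149 and 80.1 CPM under GSK126 and, untreated, 26.9, 53 and 27.7 CPM. In each line its untreated level lay between the compounds, and its log2 difference was -2.53 ± 0.35 (SE, adjusted p = 0.0025). LIF, a cytokine of the interleukin-6 family, read 3.05, 6.29 and 67.5 CPM under TSA and 83.2, 227 and 133 CPM under GSK126. LIF was far lower under TSA in MHCC97H and A549 and by less in HCT116 (log2 -2.94, adjusted p = 0.0426, and -4.97 without HCT116). CXCL5, a neutrophil chemokine, read 2.39, 9.31 and 0.0601 CPM under TSA and 42.7, 208 and 0.0680 CPM under GSK126 and was near 0 in HCT116 under both compounds (-4.29 ± 0.41 SE, adjusted p = 0.00108). IL1B, interleukin-1 beta, was called lower (-3.87, adjusted p = 0.0177) but of the 6 libraries only that of GSK126 in MHCC97H passed 1 CPM.

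Interferon-stimulated genes act against viruses. Of 18 tested, 7 were called higher and 3 lower, against 14.7% and 14.2% of all genes. The list's median was 0.47. Calls numbered 3 higher and 0 lower without MHCC97H, and 3 and 0 without the GSK126 library of A549. IFI6, a mitochondrial interferon-induced protein, read 50.1, 45.7 and 15.0 CPM under TSA and 1.20, 3.43 and 3.20 CPM under GSK126. IFIT1, which binds foreign RNA ends, read 8.15, 44 and 16.7 CPM under TSA and 1.53, 3.23 and 1.90 CPM under GSK126. IRF7, a transcription factor of the response, read 72.6, 54.2 and 25.1 CPM under TSA and 8.51, 4.78 and 8.23 CPM under GSK126. For each of these 3 genes and for OASL the TSA libraries lay above all GSK126 libraries. The log2 differences were 4.03 ± 0.66 (SE, adjusted p = 0.00389), 3.17 ± 0.44 (SE, adjusted p = 0.00259), 2.81 ± 0.45 (SE, adjusted p = 0.00372) and, for OASL, 2.65 ± 0.65 (SE, adjusted p = 0.0167). IFIT2, OAS1 and IFIH1 were the members called lower, named here after their values were seen, with log2 differences of -2.17, -1.81 and -1.16. MHC class I genes display peptides to T cells. Of 16, 3 were called higher and 4 lower, against 14.7% and 14.2% of all genes. HLA-F, a non-classical class I chain, was higher (2.24, adjusted p = 0.00389), whereas TAPBP, the chaperone tapasin, read 49.5, 64.0 and 33.5 CPM under TSA and 181, 165 and 159 CPM under GSK126 and was lower (-1.82 ± 0.21 SE, adjusted p = 0.00172). The peptide-trimming enzymes ERAP1 (-1.84, adjusted p = 0.00291) and ERAP2 (-1.73, adjusted p = 0.0187) were lower too. Without MHCC97H the calls of LIF, IRF7, OASL and ERAP2 were lost and IL1B was not tested. Those of LIF, OASL and ERAP2 were lost without the GSK126 library of A549, LIF without the S2101 library of A549, and none was kept without A549, where OASL stood at 1.72.

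Known responders to inhibition of histone deacetylases were higher under TSA. Of 12 listed, 11 were called higher and 0 lower, with a median log2 difference of 2.32 and 2.57, 2.48 and 1.03 within the lines (7 higher and 0 lower without MHCC97H, 7 and 0 without the GSK126 library of A549). Members were chosen with earlier results of these data known, so this count is a description. MT1X is counted here and again among the metallothioneins. The list stood at 2.73 under TSA and 0.46 under GSK126 against untreated cells. CDKN1A, the gene of the cell cycle inhibitor p21 (chromosome 6, 36676463 to 36687332), read 649, 252 and 472 CPM under TSA and 78.4, 94.8 and 207 CPM under GSK126. HIST2H2BE, a histone H2B gene (chromosome 1, 149884459 to 149886682), read 113, 127 and 13.1 CPM under TSA and 8.51, 8.66 and 1.43 CPM under GSK126. DHRS2, a dehydrogenase, read 30.1, 2553 and 1994 CPM under TSA and 0.732, 50.3 and 40.1 CPM under GSK126. CDKN1A and HIST2H2BE did not overlap between groups, and DHRS2 was low in MHCC97H under either compound. Log2 differences were 1.97 ± 0.43 (SE, adjusted p = 0.0108), 3.63 ± 0.35 (SE, adjusted p = 0.00108) and 5.65 ± 1.01 (SE, adjusted p = 0.00528). TXNIP, a thioredoxin-binding protein, read 169, 305 and 0.120 CPM under TSA and 13.2, 7.17 and 0 CPM under GSK126, so the difference of 4.52 (adjusted p = 0.00661) came from MHCC97H and A549.

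Clustered histone genes were mostly called higher under TSA. Of 42 clustered histone genes tested, of 73 listed, 36 were called higher and 0 lower, against 14.7% and 14.2% of all genes. In all 3 lines 32 were higher, against 4496 of all 16929 genes tested. Calls on this list numbered 24 higher and 0 lower without MHCC97H, and 19 and 0 without the GSK126 library of A549. The fitted median was 3.4, while medians of log2(CPM + 1) differences were 0.79, 2.18 and 1.38 within the lines. The median stood at 3.31 under TSA and -0.071 under GSK126 against untreated cells. Members that passed the low-count filter only through TSA had to differ, so the count is a description. HIST1H1E, linker histone H1.4, read 8.28, 8.63 and 5.29 CPM under TSA and 0.532, 0.194 and 0.136 CPM under GSK126, without overlap (4.63 ± 0.78 SE, adjusted p = 0.00433). HIST1H3A had 74 reads over the 3 TSA libraries and 1 over the GSK126 libraries, a ratio of 69.7 (95% counting interval 12.1 to 2791). For HIST1H2BL, 87 against 3 reads gave a ratio of 27.3 (95% counting interval 9.05 to 135). HIST1H1B was called higher (4.31, adjusted p = 0.0189) and was at 0 reads in HCT116 under both compounds. Replication-dependent histone mRNAs mostly lack a poly(A) tail, which poly(A) selection needs, and copies can share reads.

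Metallothioneins, small metal-binding proteins encoded together on chromosome 16, were called higher in 6 of 7 cases and lower in 0 (median 3.69; 3 higher and 0 lower without MHCC97H, 3 and 0 without the GSK126 library of A549). Of 11 listed 7 passed the low-count filter, which members high under TSA alone could do, so this count is a description too. Of the 3 with at least 10 CPM in 3 libraries 2 were called higher. MT2A read 273, 464 and 1333 CPM under TSA and 4.52, 93.3 and 334 CPM under GSK126, MT1X 117, 251 and 155 CPM under TSA and 0.865, 15.6 and 24.1 CPM under GSK126, and MT1G 19.7, 4.32 and 2.77 CPM under TSA and 0, 0.194 and 0.272 CPM under GSK126. Each was higher under TSA in each line, and the groups of MT2A overlapped. Log2 differences were 3.69 ± 0.78 (SE, adjusted p = 0.00957), 4.91 ± 1.04 (SE, adjusted p = 0.00949) and 5.62 ± 1.17 (SE, adjusted p = 0.00911). MT3 had 88 reads under TSA, most of them in A549, and 1 under GSK126, a ratio of 82.9 (95% counting interval 14.5 to 3313). In this and the 2 preceding paragraphs, DHRS2, HIST1H1B and MT3 lost their calls without MHCC97H, where CDKN1A stood at 1.31 and MT2A at 2.16. TXNIP, HIST1H3A, HIST1H2BL, HIST1H1B (log2 2.73) and MT3 lost theirs without the GSK126 library of A549. Without A549 no call was kept, and HIST1H3A, HIST1H2BL, HIST1H1B and MT3 were not tested, nor was MT3 without the S2101 library of A549.

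Neuronal genes were mostly called higher under TSA. Of 27 tested, 18 were called higher and 1 lower, and of 16 with at least 10 CPM in 3 libraries 10 and 0. Members that passed the low-count filter only through TSA had to differ, here and among the protocadherins, so these counts are a description. The neuronal list had a median log2 difference of 2.45. Medians within the lines were 1.19, 1.96 and 0.39, and calls numbered 7 higher and 0 lower without MHCC97H, 8 and 0 without the GSK126 library of A549. SYT11, a synaptotagmin (chromosome 1, 155859567 to 155885199), read 254, 227 and 39.0 CPM under TSA and 0.399, 7.5 and 0.612 CPM under GSK126. VGF, a neuropeptide precursor (chromosome 7, 101162509 to 101169952), read 513, 443 and 2748 CPM under TSA and 4.92, 22 and 158 CPM under GSK126. Every TSA library lay above every GSK126 library for both genes, with log2 differences of 6.95 ± 1.00 (SE, adjusted p = 0.00276) and 5.16 ± 0.70 (SE, adjusted p = 0.00249). STMN2 and STMN4, stathmins that act on microtubules, had 0 reads in the 3 GSK126 libraries. With the 3 GSK126 libraries set together to a floor of 3 reads, STMN2 was at least 33.6-fold and STMN4 at least 17.6-fold higher under TSA. Clustered protocadherins, adhesion receptors encoded in tandem on chromosome 5, were called higher in 8 and lower in 0 of 44 cases (median 1.28; 0 higher and 0 lower without MHCC97H, 2 and 0 without the GSK126 library of A549). That share is near the 14.7% of all genes and the 20.3% of the lowest 20% by level, and of the 3 with at least 10 CPM in 3 libraries 0 were called. PCDHB10 read 1.52, 2.16 and 1.32 CPM under TSA and 0.399, 0.388 and 0 CPM under GSK126 (2.83 ± 0.61 SE, adjusted p = 0.0105), PCDHB7 2.72, 1.17 and 0.962 CPM under TSA and 0.399, 0.0646 and 0.136 CPM under GSK126 (3.23 ± 0.89 SE, adjusted p = 0.0259), and PCDHA1 1.19, 6.35 and 0.421 CPM under TSA and 0, 1.10 and 0.0680 CPM under GSK126 (3.31 ± 0.80 SE, adjusted p = 0.0157). The groups overlapped only for PCDHA1 among these 3 genes, and reads can be shared between members. PCDHB18 had 39 against 1 reads, a ratio of 36.8 (95% counting interval 6.22 to 1489).

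Developmental regulators that are textbook targets of lysine 27 methylation had few called members. Of 37 listed, 29 were tested, 3 were called higher under TSA and 1 lower, against 20.3% and 2.01% in the lowest 20% of genes by level. Calls in this list numbered 0 higher and 0 lower without MHCC97H, 0 and 0 without the GSK126 library of A549. Without A549, 19 were tested and 0 called. Their median was 0.37 under TSA and -0.15 under GSK126 against untreated cells, and the difference of the compounds was 0.60. NKX6-1, a homeobox factor, read 0.133, 2.47 and 10.3 CPM under TSA and 0, 0.194 and 2.31 CPM under GSK126 (2.89 ± 0.65 SE, adjusted p = 0.012). HAND1, a factor of heart and placenta, read 1.06, 5.42 and 0.0601 CPM under TSA and 0, 0.259 and 0.0680 CPM under GSK126 (4.02 ± 1.19 SE, adjusted p = 0.0324). Both overlapped between groups, and HAND1 passed 1 CPM only under TSA in MHCC97H and A549. WNT1, a signalling ligand, had 31 reads under TSA and 1 under GSK126, a ratio of 29.2 (95% counting interval 4.87 to 1191). FOXL2, a factor of the ovary, had 2 reads under TSA and 42 under GSK126, nearly all in A549, so GSK126 was the higher by a ratio of 22.3 (95% counting interval 5.80 to 190.0). Of 17 cancer-testis genes tested 2 were called higher and 0 lower, against 14.7% and 14.2% of all genes. MAGEA1 had 0 reads under GSK126 and was at least 12.2-fold higher under TSA, and GAGE1 stood at 2.14 (adjusted p = 0.0267), with 19.6, 0.185 and 0.120 CPM under TSA. In this and the preceding paragraph, SYT11 and VGF alone kept their calls without MHCC97H, where STMN2, WNT1, MAGEA1 and GAGE1 were not tested. The calls of PCDHA1, PCDHB7, WNT1, HAND1, FOXL2, NKX6-1, MAGEA1 and GAGE1 were lost without the GSK126 library of A549, and that of HAND1 without the S2101 library of A549. None was kept without A549, where 6 of the 14 were not tested, and STMN2, PCDHB18 and NKX6-1 were not tested without HCT116.

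Of the genes that encode the target enzymes, EZH2, HDAC1 and HDAC2 were not called, and HDAC3 was higher under TSA. EZH2 read 55, 50.4 and 58.0 CPM under TSA and 46.8, 23.2 and 71.5 CPM under GSK126, lower in HCT116 and higher in the other lines under TSA, and was not called (log2 difference 0.33, 95% interval -0.22 to 0.88, adjusted p = 0.328). SUZ12 (0.026, interval -0.43 to 0.48) and EED (0.27, interval -0.13 to 0.67), which complete the PRC2 core, and EZH1 (0.20, interval -0.24 to 0.65) were not called either. Of 11 PRC2 genes RBBP4, a histone-binding subunit, was called lower (-0.66, adjusted p = 0.00889) and JARID2, an accessory subunit, higher (0.63, adjusted p = 0.0249). HDAC1 read 233, 132 and 265 CPM under TSA and 153, 92.3 and 273 CPM under GSK126 and HDAC2 83.5, 88.8 and 155 CPM under TSA and 116, 87.4 and 170.3 CPM under GSK126, with log2 differences of 0.38 (adjusted p = 0.125) and -0.19 (adjusted p = 0.325). Of 11 histone deacetylase genes 1 was called higher and 2 lower. For this and the PRC2 list, the shares over all genes were 14.7% higher and 14.2% lower. HDAC3, the deacetylase of the NCoR complex (chromosome 5, 141620881 to 141636849), read 109.6, 127 and 92.0 CPM under TSA and 31.3, 41.0 and 60.7 CPM under GSK126. HDAC7, a class IIa deacetylase, read 6.63, 6.97 and 23.8 CPM under TSA and 85.2, 62.9 and 38.1 CPM under GSK126, and HDAC4, of the same class, 28.6, 19.8 and 19.2 CPM under TSA and 45.4, 35.0 and 58.6 CPM under GSK126. None of these 3 genes overlapped between groups. HDAC3 was higher under TSA (1.42 ± 0.28 SE, adjusted p = 0.00788), and HDAC7 (-2.22 ± 0.59 SE, adjusted p = 0.0225) and HDAC4 (-1.05 ± 0.22 SE, adjusted p = 0.00875) were lower. Per transcript length, HDAC1 stood at 115, 68.8 and 141 RPKM under TSA and 67.1, 43.9 and 132 RPKM under GSK126, against 57.4, 70.8 and 52.2 RPKM under TSA and 14.6, 20.8 and 31.3 RPKM under GSK126 for HDAC3. KDM1A, the LSD1 gene, was not called (0.16, adjusted p = 0.46). HDAC3, HDAC7, HDAC4, RBBP4 and JARID2 lost their calls without MHCC97H, HDAC7 and JARID2 without the GSK126 library of A549, and all without A549. Without HCT116, HDAC7 stood at -3.4.

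Genes of DNA replication and mitosis differed between the compounds in opposite directions in different lines. Replication genes license origins, build forks and supply nucleotides, and mitotic genes drive spindle assembly and chromosome segregation, so both mark proliferating cells. Against untreated cells, the median of 33 replication genes was -1.22 under TSA and -1.14 under GSK126, and that of 28 mitotic genes -1.46 and -1.03. Within MHCC97H, A549 and HCT116, the mitotic median against untreated cells was -2.30, -1.34 and -1.065 under TSA. Under GSK126 it was -0.42, -2.0 and -0.85. For replication genes the medians were -1.42, -1.045 and -1.18 under TSA and -0.58, -1.85 and -1.29 under GSK126. Between the compounds, 3 replication genes were called higher and 1 lower, against 14.7% and 14.2% of all genes, and their median was -0.075. Within MHCC97H, A549 and HCT116 it was -0.90, 0.76 and 0.13. For mitotic genes edgeR's test called 0, with 4 of 28 at an unadjusted p under 0.05, and DESeq2 called 2 lower. The median was -0.45, and the values within the lines were -1.73, 0.68 and -0.26. The difference between lines was not tested, since each line had 1 library per compound. CCNA2, cyclin A2, read 4.97, 20.8 and 29.1 CPM under TSA and 58.6, 21.1 and 48.6 CPM under GSK126 and, untreated, 98.7, 111 and 118 CPM. FOXM1, a transcription factor of mitotic genes, read 30.2, 47.7 and 60.9 CPM under TSA and 261, 65.7 and 79.2 CPM under GSK126 and, untreated, 237, 185 and 131 CPM. In MHCC97H both genes were far lower under TSA. In A549 CCNA2 was nearly level (-0.02 within the line) and FOXM1 lower (-0.45), unlike the positive A549 median. The fitted log2 differences of -1.29 (adjusted p = 0.0968) for CCNA2 and -1.22 (adjusted p = 0.0797) for FOXM1 were not called.

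**Figure D2:**
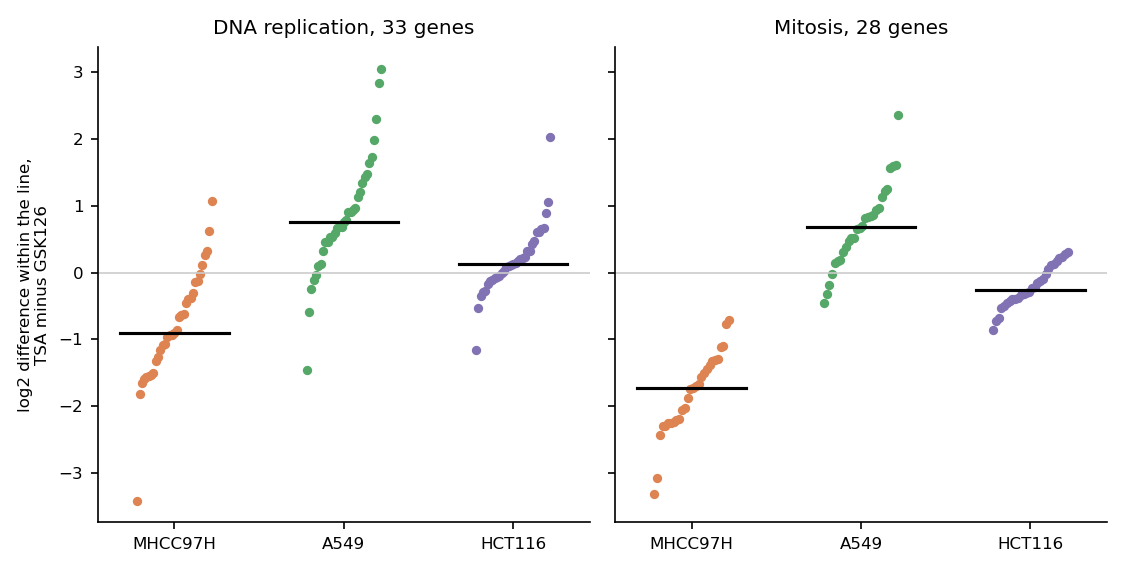
Log2 difference within each line, TSA minus GSK126, of log2(CPM + 1) (y axis) for 33 DNA replication genes and 28 mitotic genes (1 point per gene, sorted within each line on the x axis; bars are medians). Mitotic genes lie below 0 in MHCC97H (median -1.73), mostly above in A549 (0.68) and around 0 in HCT116 (-0.26).

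Nucleotide supply genes were called in both directions. TYMS, thymidylate synthase (chromosome 18, 657653 to 673578), read 5.17, 12.4 and 33.2 CPM under TSA and 64.8, 35.9 and 75.2 CPM under GSK126, and TK1, thymidine kinase (chromosome 17, 78174079 to 78187204), read 182, 388 and 489 CPM under TSA and 118, 53.6 and 119 CPM under GSK126. Neither overlapped between groups, with TYMS lower (-2.07 ± 0.40 SE, adjusted p = 0.00713) and TK1 higher (1.79 ± 0.36 SE, adjusted p = 0.00788) under TSA. GINS4 (1.22, adjusted p = 0.0132) and GINS2 (0.76, adjusted p = 0.0498), subunits of the replicative helicase, were higher. Of 7 inhibitors of cyclin-dependent kinases CDKN1A, given above, was the 1 called, and it was higher. Of 9 genes of the G1 cyclin list 3 were called higher and 1 lower. For both lists, the shares over all genes were 14.7% higher and 14.2% lower. CCND3, cyclin D3, read 134, 120.1 and 53.8 CPM under TSA and 83.3, 39.2 and 14.3 CPM under GSK126 (1.40 ± 0.30 SE, adjusted p = 0.0106), and CDK4, its kinase, 147, 91.7 and 58.3 CPM under TSA and 254, 156 and 94.0 CPM under GSK126 (-0.75 ± 0.16 SE, adjusted p = 0.00967). Within each line CCND3 was higher and CDK4 lower under TSA, with overlap between lines. CCNA1, the germ-cell cyclin, was called higher (5.0, adjusted p = 0.00334) from 0.133, 22.9 and 0.662 CPM under TSA, and CCND2, cyclin D2, from 2.85, 11.6 and 0.301 CPM (4.77, adjusted p = 0.023).

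Genes of stress and cell death were called in both directions. FDXR, ferredoxin reductase, read 22.8, 107 and 104 CPM under TSA and 4.46, 26.0 and 43.4 CPM under GSK126 (1.91 ± 0.25 SE, adjusted p = 0.00238). GADD45B, a stress sensor, read 82.2, 71.7 and 22.5 CPM under TSA and 13.2, 6.08 and 20.5 CPM under GSK126 (2.26 ± 0.63 SE, adjusted p = 0.0262), with a large difference in MHCC97H and A549 and little in HCT116. BCL2 family genes set the threshold for apoptosis. Of 16, 1 was called higher and 3 lower, against 14.7% and 14.2% of all genes. BID, a pro-apoptotic member cleaved by caspases, read 11.5, 4.99 and 7.76 CPM under TSA and 60.5, 27.2 and 23.8 CPM under GSK126, without overlap (-2.15 ± 0.22 SE, adjusted p = 0.00133). BCL2L2, a survival member, read 20.7, 18.6 and 24.4 CPM under TSA and 43.9, 83.5 and 63.4 CPM under GSK126 (-1.55 ± 0.21 SE, adjusted p = 0.00238). BOK was lower (-0.88, adjusted p = 0.00725), and BIK, a pro-apoptotic member, was higher (2.96, adjusted p = 0.0321) through MHCC97H and A549. In this and the preceding paragraph, GINS2, CCND2, CDK4, GADD45B, BIK (log2 1.63) and BOK lost their calls without MHCC97H, where TYMS stood at -1.33. GINS2 also lost its call without HCT116 and without the S2101 library of A549. The calls of GINS4, GINS2 (log2 0.47), CCNA1, CCND2, CCND3, GADD45B and BIK were lost without the GSK126 library of A549. Without A549 CCNA1 and CCND2 were not tested and the rest were not called.

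Lysosomal genes were called higher more often than lower. Of 25 genes of the lysosome and its proton pump, 12 were called higher and 2 lower, against 14.7% and 14.2% of all genes. The list's median was 0.47, with 0.73, 0.46 and 0.21 within the lines. Calls numbered 5 higher and 1 lower without MHCC97H, and 7 and 1 without the GSK126 library of A549. NEU1, a sialidase, read 1766, 756 and 191 CPM under TSA and 248, 128 and 41.4 CPM under GSK126 (2.53 ± 0.39 SE, adjusted p = 0.00334). ATP6V0D1, a subunit of the proton pump (chromosome 16, 67438019 to 67481157), read 202, 189 and 96.2 CPM under TSA and 66.3, 66.0 and 33.0 CPM under GSK126 (1.56 ± 0.17 SE, adjusted p = 0.00155). MCOLN1, a lysosomal calcium channel, read 59.0, 39.2 and 25.4 CPM under TSA and 16.5, 10.2 and 9.86 CPM under GSK126 (1.74 ± 0.28 SE, adjusted p = 0.00386). ATP6V0D1 and MCOLN1 did not overlap between groups, and NEU1 was higher under TSA within each line. CTSL, the protease cathepsin L, went the other way (-1.89, adjusted p = 0.0356), with 507, 140.2 and 71.0 CPM under TSA and 1835, 1807 and 105 CPM under GSK126. Autophagy genes had 3 of 22 members called higher and 2 lower, against 14.7% and 14.2% of all genes. ATG4A, a protease that processes ATG8 proteins, read 83.4, 36.4 and 25.8 CPM under TSA and 20.5, 11.6 and 8.70 CPM under GSK126 (1.74 ± 0.24 SE, adjusted p = 0.00248), and ATG2A, a lipid transfer protein, was higher (1.30, adjusted p = 0.0175). Of the ATG8 proteins GABARAPL2 was higher (0.74, adjusted p = 0.0195) and GABARAPL1 lower (-0.83, adjusted p = 0.0445).

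Of 80 nuclear genes of oxidative phosphorylation, 18 were called higher and 1 lower, against 14.7% and 14.2% of all genes, with a median log2 difference of 0.20 and 0.035, 0.14 and 0.36 within the lines (8 higher and 0 lower without MHCC97H, 7 and 0 without the GSK126 library of A549). SDHA, a subunit of complex II, read 311, 308 and 212 CPM under TSA and 127, 105 and 102 CPM under GSK126 (1.31 ± 0.18 SE, adjusted p = 0.00255). COX6A1, of complex IV, read 414, 309 and 361 CPM under TSA and 168, 141 and 118 CPM under GSK126 (1.35 ± 0.17 SE, adjusted p = 0.00228), and NDUFB3, of complex I, 119.6, 144 and 78.0 CPM under TSA and 49.0, 44.5 and 30.1 CPM under GSK126 (1.45 ± 0.17 SE, adjusted p = 0.00177). All 3 lay above every GSK126 library, as did COX6B2, the testis form of a complex IV subunit (2.17, adjusted p = 0.0168). Of 78 cytosolic ribosomal protein genes, 25 were called lower and 0 higher. In all 3 lines 52 were lower, against 4112 of all 16929 genes tested. Calls on this list numbered 0 higher and 0 lower without MHCC97H, and 0 and 3 without the GSK126 library of A549. In the highest 20% of genes by level, 27.2% were called lower. With at least 10 CPM in 3 libraries as the filter, 11 ribosomal protein genes were called lower and 4 higher. Their median was small at -0.31, and -0.47, -0.34 and -0.16 within the lines. RPL10 read 398, 621 and 926 CPM under TSA and 1021, 1298 and 1329 CPM under GSK126 (-0.94 ± 0.24 SE, adjusted p = 0.0196), and RPL21 88.7, 213 and 453 CPM under TSA and 171, 401 and 777 CPM under GSK126 (-0.87 ± 0.14 SE, adjusted p = 0.00388). The RPL10 libraries did not overlap, and RPL21 was lower within each line. RPL13A (-0.85, adjusted p = 0.014) and RPS23 (-0.78, adjusted p = 0.0169) were also lower, and pseudogene copies can share their reads. Of the 16 called genes in this and the preceding paragraph, MCOLN1, ATP6V0D1, ATG4A, NDUFB3, COX6A1 and SDHA kept their calls without MHCC97H, and none did without A549. CTSL, ATG2A, GABARAPL1, GABARAPL2, RPL10, RPL13A, RPS23 and COX6B2 lost theirs without the GSK126 library of A549. CTSL stood at -1.04 and GABARAPL1 at -0.38 without A549, and GABARAPL1 also lost its call without HCT116 and without the S2101 library of A549.

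The other lists had few called members, beside 14.7% of all genes called higher and 14.2% lower. Of 18 hypoxia genes 2 were called each way, with VEGFA, the angiogenic factor, lower (59.4, 22.4 and 36.0 CPM under TSA and 83.7, 75.9 and 155 CPM under GSK126; -1.49 ± 0.31 SE, adjusted p = 0.00945) and SLC2A3, a glucose transporter, higher (3.66, adjusted p = 0.0433). PDK1, a kinase that restrains pyruvate use, was lower (-1.39, adjusted p = 0.00889) and ALDOC, an aldolase, higher (2.3, adjusted p = 0.0339). Of 16 immediate early genes, 1 was called each way. FOSL1, an AP-1 subunit, read 5.76, 6.84 and 53.4 CPM under TSA and 134, 61.3 and 155 CPM under GSK126 (-2.69 ± 0.73 SE, adjusted p = 0.0246), and IER2 was higher (1.03, adjusted p = 0.0177). Of 14 epithelial genes CLDN4, a claudin of tight junctions, was called lower (-1.05, adjusted p = 0.0428) and 0 were called higher. Of 14 mesenchymal genes 3 were called higher and 0 lower, namely COL1A1, a chain of type I collagen (3.76, adjusted p = 0.0235), and the transcription factors SNAI2 (2.87, adjusted p = 0.0141) and SNAI1 (1.55, adjusted p = 0.0236). The mesenchymal list had a median log2 difference of 0.07, with -0.046, -0.46 and 0.60 within the lines. The epithelial list had a median of 0.24, with 0.34, 0.033 and -1.06 within the lines. Without HCT116, 3 epithelial genes were called higher and 0 lower. CYP1A1, a monooxygenase, was the 1 called member of 8 aryl hydrocarbon receptor targets, with 39.2, 37.0 and 18.9 CPM under TSA and 13.8, 0.840 and 2.79 CPM under GSK126 (3.06 ± 0.72 SE, adjusted p = 0.0143). Only VEGFA and CYP1A1 of the called genes in this paragraph kept their calls without MHCC97H, where SLC2A3 stood at 1.42 and COL1A1 at 2.18, and none did without A549, where SNAI1 stood at 1.03. IER2 and CLDN4 lost their calls without HCT116, and SLC2A3 without the S2101 library of A549. SLC2A3, ALDOC, FOSL1, CLDN4, COL1A1, SNAI2 and SNAI1 lost theirs without the GSK126 library of A549.

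Under the rule of a call, the same direction in 3 lines and 10 CPM or more on average in the higher condition, the first of the 12 largest differences toward TSA was RFPL4A, a RING finger gene (chromosome 19, 55757294 to 55763421) whose reads may be shared with a near-identical copy. It read 18.5, 30.5 and 18.9 CPM under TSA and 0.0665, 0.388 and 0.0680 CPM under GSK126. CEACAM20, of the carcinoembryonic antigen family (chromosome 19, 44506159 to 44529675), read 14.4, 41.2 and 1.74 CPM under TSA and 0, 0.452 and 0 CPM under GSK126. ZCCHC12, a zinc finger coactivator (chromosome X, 118823824 to 118826968), read 202, 86.5 and 96.6 CPM under TSA and 0.333, 2.0 and 1.09 CPM under GSK126. For all 3 genes the TSA libraries lay above every GSK126 library, with log2 differences of 7.52 ± 1.12 (SE, adjusted p = 0.00302), 7.34 ± 1.19 (SE, adjusted p = 0.00377) and 7.17 ± 1.22 (SE, adjusted p = 0.00449). NGFR, the low-affinity neurotrophin receptor, read 43.5, 126 and 198 CPM under TSA and 0, 2.39 and 4.49 CPM under GSK126 (6.59 ± 1.35 SE, adjusted p = 0.00852). PEG10, an imprinted gene derived from a retrotransposon, reached the highest level of the set, with 2143, 1761 and 809.7 CPM under TSA and 13.3, 145 and 20.6 CPM under GSK126 (6.09 ± 1.09 SE, adjusted p = 0.0054). RPL3L, the muscle form of a ribosomal protein, read 3.91, 123 and 42.5 CPM under TSA and 0, 3.55 and 0.0680 CPM under GSK126 (6.70 ± 0.99 SE, adjusted p = 0.00298). DNAH3, an axonemal dynein, stood at 6.05 (adjusted p = 0.0039), GPR50, a relative of the melatonin receptors, at 6.93 (adjusted p = 0.00268), LRRC15, a leucine-rich repeat protein, at 6.77 (adjusted p = 0.00172), and PHOSPHO1, a phosphatase of bone mineralisation, at 5.99 (adjusted p = 0.00457). LINC00659, a long non-coding RNA (6.05, adjusted p = 0.00231), had 114 CPM under TSA in HCT116 and at most 1.39 CPM in the other TSA libraries. With SYT11, described above, these are the 12 largest. NGFR lost its call without MHCC97H, LINC00659 was not tested without HCT116, and no call of this paragraph was kept without A549.

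**Figure D3:**
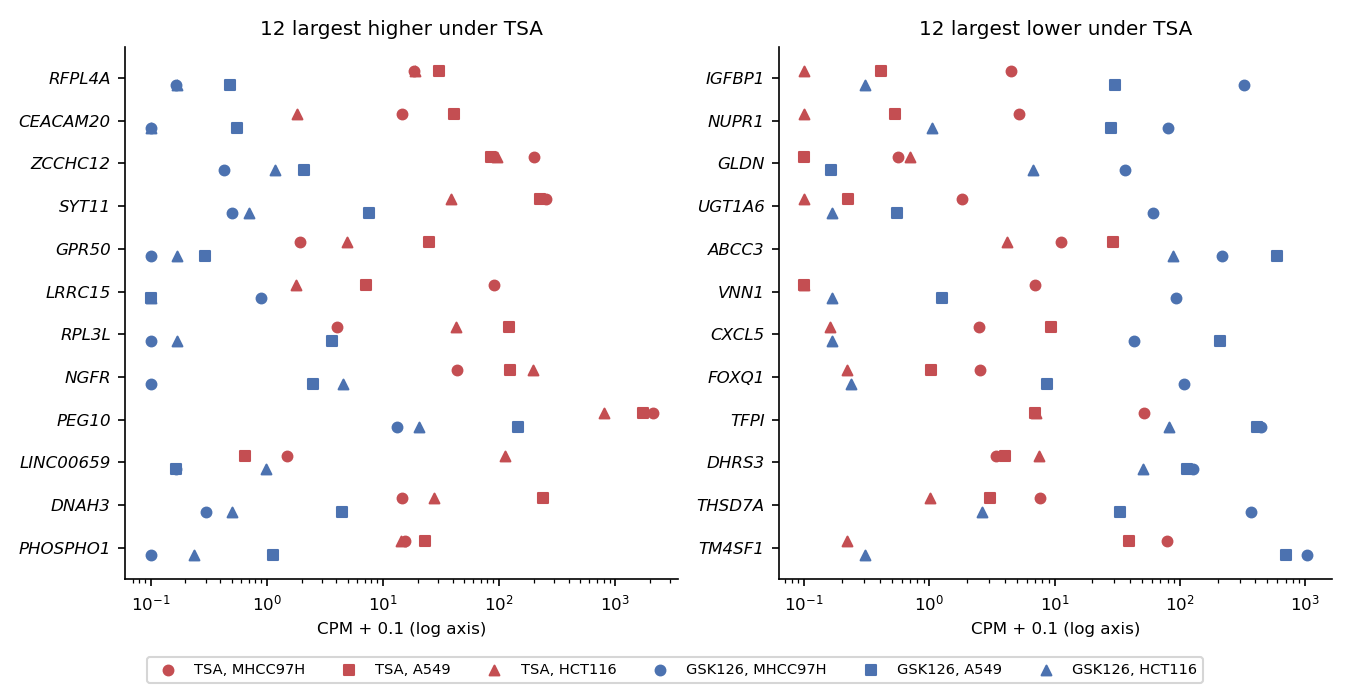
CPM plus 0.1 (x axes, log scale) of the 12 genes with the largest called differences in each direction (y axes), with red symbols for TSA and blue for GSK126 and a symbol shape per line. For 11 of the 12 higher genes the red and blue symbols do not overlap, with LINC00659 as the exception, and ABCC3, TFPI and DHRS3 are the lower genes without overlap. The genes were chosen by the size and direction of these differences, so lack of overlap only describes them.

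Toward GSK126 the first of the 12 by size was IGFBP1. IGFBP1, a secreted binding protein of insulin-like growth factors (chromosome 7, 45888488 to 45893660), read 4.37, 0.308 and 0 CPM under TSA and 327, 30.3 and 0.204 CPM under GSK126, with a log2 difference of -6.67 ± 0.66 (SE, adjusted p = 0.00112). Untreated cells read 63.6, 4.21 and 0 CPM, between the compounds in MHCC97H and A549. ABCC3, an exporter of conjugated bile acids and drugs (chromosome 17, 50634881 to 50692253), read 11.1, 29.4 and 4.03 CPM under TSA and 216, 599 and 88.0 CPM under GSK126. TFPI, the inhibitor of tissue factor (chromosome 2, 187464230 to 187554435), read 51.7, 6.84 and 7.04 CPM under TSA and 441, 414 and 81.5 CPM under GSK126. DHRS3, a retinal reductase (chromosome 1, 12567910 to 12618210), read 3.31, 3.95 and 7.34 CPM under TSA and 128, 114 and 51.0 CPM under GSK126. These 3 genes did not overlap between groups, and the log2 differences were -4.37 ± 0.42 (SE, adjusted p = 0.00109), -4.23 ± 0.57 (SE, adjusted p = 0.00248) and -4.12 ± 0.66 (SE, adjusted p = 0.00366). The within-line differences of ABCC3 were close to each other, at -4.17, -4.30 and -4.15. TM4SF1, a tetraspanin-like surface protein (-3.88, adjusted p = 0.00264), FOXQ1, a forkhead factor (-4.24, adjusted p = 0.00603), THSD7A (-3.92, adjusted p = 0.031), GLDN, a gliomedin (-4.72, adjusted p = 0.00268), VNN1, the enzyme pantetheinase (-4.35, adjusted p = 0.00386), and UGT1A6, a glucuronosyltransferase (-4.50, adjusted p = 0.00431), had overlapping groups because at least 1 line expressed them weakly. NUPR1 and CXCL5, described above, complete the 12. CXCL5 was near 0 in HCT116 under both compounds, so its direction rests on MHCC97H and A549. Reads of UGT1A6 may be shared with other genes of its locus. Without MHCC97H, FOXQ1 (log2 -2.61), THSD7A (log2 -2.42) and TM4SF1 lost their calls and UGT1A6 and VNN1 were not tested. THSD7A also lost its call without the GSK126 or the S2101 library of A549, and without A549 every call of this paragraph was lost.

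Few genes moved to opposite sides of the untreated level in every line. Of the called genes that averaged 10 CPM or more in the higher condition, 4 were at least 0.5 log2 above untreated cells under TSA and at least 0.5 below them under GSK126 in all 3 lines, and 14 had the reverse pattern. ID2, an inhibitor of helix-loop-helix factors (chromosome 2, 8682056 to 8684461), was the first of the 4, with 201, 431 and 237 CPM under TSA and 16.1, 71.8 and 58.6 CPM under GSK126 and 30.3, 145 and 85.2 CPM untreated. MYL9, a myosin light chain, read 22.8, 5.49 and 57.0 CPM under TSA and 3.72, 0.776 and 16.9 CPM under GSK126 and 7.80, 3.38 and 31.6 CPM untreated. Log2 differences were 2.84 ± 0.39 (SE, adjusted p = 0.00259) and 2.33 ± 0.28 (SE, adjusted p = 0.00196). LOC730101 (2.15, adjusted p = 0.00155) and C2orf44 (1.55, adjusted p = 0.00232) were the other members. Among the 14, RNF145, a sterol-responsive ubiquitin ligase (chromosome 5, 159157409 to 159210053), read 37.7, 52.2 and 40.9 CPM under TSA and 225, 744 and 232 CPM under GSK126 and 67.7, 183 and 63.5 CPM untreated. SCNN1A, a subunit of the epithelial sodium channel, read 2.12, 1.66 and 31.0 CPM under TSA and 14.2, 14 and 207 CPM under GSK126 and 8.36, 5.86 and 95.7 CPM untreated. PGM1, phosphoglucomutase, read 9.54, 23.5 and 30.4 CPM under TSA and 61.4, 97.2 and 79.5 CPM under GSK126 and 42.9, 49.3 and 50.3 CPM untreated. RNF145 and PGM1 did not overlap between groups, while SCNN1A was far higher in HCT116 than in the other lines under either compound. Log2 differences were -2.95 ± 0.33 (SE, adjusted p = 0.00155), -2.82 ± 0.31 (SE, adjusted p = 0.00147) and -1.97 ± 0.28 (SE, adjusted p = 0.00268), and SYT17, a synaptotagmin, stood at -2.32 (adjusted p = 0.00541). ELOVL6, CYP51A1, ACAT2 and NFKBIA, given above, belong to the same 14. SYT17 lost its call without MHCC97H, and none was kept without A549.

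TSA libraries held more detectable genes than GSK126 libraries. With at least 1 CPM of the library total, 14646, 15157 and 14939 genes were detected under TSA and 13395, 14082 and 13859 under GSK126. The difference was 1251, 1075 and 1080 genes, or 1135.3 ± 100.2 (SD, n = 3). An exact 2-sided sign-flip permutation test over 3 lines gave p = 0.25, the smallest value that 3 pairs allow. Genes under 0.1 CPM with GSK126 and at least 1 CPM with TSA were 373, 269 and 212 in the 3 lines in the same order, of which 339, 231 and 180 are annotated as protein coding. The reverse held for 16, 19 and 6 genes. Over the lines, 735 genes were seen under TSA alone in at least 1 line and 9 in all 3, against 40 and 0 for GSK126.

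**Figure D4:**
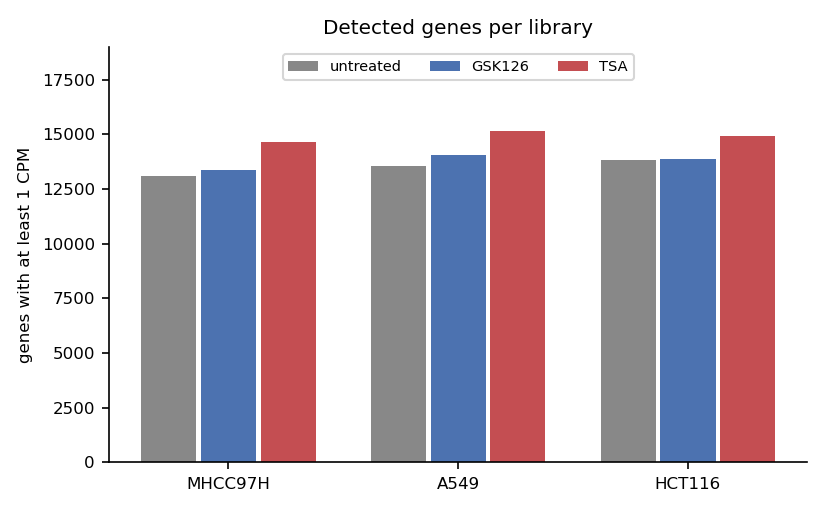
Number of genes with at least 1 CPM (y axis, from 0) in the untreated, GSK126 and TSA library of each line (x axis). The TSA bar is the highest in each line, by 1251, 1075 and 1080 genes over GSK126.

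The 9 genes were chosen by these levels, so their ratios and calls are a description. FABP4, the adipocyte fatty acid binding protein, led the 9 genes by level, with 19.6, 1.97 and 1.5 CPM under TSA and 1 read over the 3 GSK126 libraries. Its ratio was 333 (95% counting interval 59.3 to 13180.0). ACTBL2, an actin-like gene (chromosome 5, 57480018 to 57482811), had 7.62, 8.94 and 1.86 CPM under TSA and 0 reads under GSK126, at least 91.4-fold higher over the same floor. ABCD2, a peroxisomal transporter, had 242 reads under TSA and 1 under GSK126, a ratio of 228 (95% counting interval 40.5 to 9045). For HLA-DPB1, an MHC class II chain, 196 reads against 1 gave a ratio of 185 (95% counting interval 32.8 to 7333). TMEM74 had a ratio of 72.1 (95% counting interval 19.6 to 601), and COL14A1, a fibril-associated collagen, of 63.1 (95% counting interval 17.1 to 527). These ratios sum the reads of 3 lines, and their intervals cover counting error only. ADCYAP1R1, LILRB5 and STMN4 complete the 9. ABCD2 lost its call without MHCC97H, and none of the 6 with a ratio or bound in this paragraph kept its call without A549.

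Markers of the tissues of origin were sparse. The 14 liver markers summed to 163.5 CPM in untreated MHCC97H, and to 219 CPM under GSK126 and 109 CPM under TSA there, with 10 and 7 markers at 1 CPM or more. FGA, a fibrinogen chain, read 1.99, 1.23 and 0 CPM under TSA and 10.3, 9.18 and 0 CPM under GSK126 and was called lower (-2.59 ± 0.39 SE, adjusted p = 0.00622), with overlap between the groups. The 10 lung markers summed to 94.2 CPM under GSK126 and 104 CPM under TSA in A549, where SFTPA1 and AQP5 were at 0 reads. LAMP3, an alveolar and dendritic lysosomal protein, was the 1 of 5 tested that was called, with 15.7, 10.5 and 13.8 CPM under TSA and 0.665, 0.905 and 10.1 CPM under GSK126 (2.99 ± 0.71 SE, adjusted p = 0.0149). The 10 gut markers summed to 13.1 CPM under GSK126 and 18.9 CPM under TSA in HCT116, where CDX1 and FABP1 were at 0 reads, and edgeR's test called 0 of 6, with 1 at an unadjusted p under 0.05 and 0 of 9 in DESeq2. FGA and LAMP3 lost their calls without MHCC97H and without A549, and LAMP3 also without the GSK126 library of A549.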

How the data were processed

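Poly(A) RNA of 12 cultures was sequenced, 1 library per condition and line. The authors deposited read counts per gene symbol and RPKM values (reads scaled by transcript length and library total) in 1 table per library, per the file headers. The submitters' processing notes name GRCh38 (hg38). No source used here names the aligner, counter or strand setting. Of 25648 listed genes 25647 stood in all tables, an entry naming no gene in 11 tables was dropped, and 23 of 26 symbols turned into dates were renamed. RefSeq matched 97.3% of genes.

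Counts were tested with edgeR 4.0.16 (R 4.3.3; filterByExpr, TMM, quasi-likelihood F test, Benjamini-Hochberg adjustment) on all 12 libraries, with terms for condition and for line and 6 residual degrees of freedom. Samples of the same line were paired because they come from the same cell line. P-values rest on how unevenly the lines responded to the conditions, since the term for line takes out differences between lines. CPM values are TMM-scaled, except detection, which used library totals. RPKM served only to compare levels between genes. Within-line differences used log2(CPM + 1). The share of all genes tested without overlap between the groups is not given here, so lack of overlap only describes the named genes. Named genes were the 12 largest called each way averaging at least 10 CPM in the higher condition and with the same direction in 3 lines, up to 4 called members of each list by size of change (2 where none was called), target genes, genes on opposite sides of untreated cells, genes differing between lines and genes seen under TSA alone. SREBF2, SLC7A1, SLC3A2, ASNS and ATF3 were named after their values were seen. Members and lists were chosen with earlier results of these data known. DESeq2 1.42.0, other scaling, filters, models and omitted libraries were alternatives. Some items are not reported here. Omitting the GSK126 library of A549 was added after seeing the data.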

Additional observations from a re-analysis of the deposited data

Results flagged for a closer look

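In all, 6 genes with at least 10 CPM had strong differences of opposite sign in different lines, and each line had 1 library per compound, so the difference between lines was not tested. STC1, the glycoprotein stanniocalcin, read 51.4, 196 and 3.19 CPM under TSA and 0, 407 and 0.136 CPM under GSK126, a gap of 6.76 log2 between its most opposite lines. LIPG, endothelial lipase, read 204, 13.3 and 3.85 CPM under TSA and 16.6, 6.14 and 29.1 CPM under GSK126, a gap of 6.18. CPLX2, a complexin of synaptic vesicles, read 6.49, 108 and 12.6 CPM under TSA and 62.2, 470.0 and 0.612 CPM under GSK126, a gap of 6.16.

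GJA1, the gap junction protein connexin 43, read 11.6, 25.9 and 3.61 CPM under TSA and 0.20, 176 and 0.0680 CPM under GSK126, a gap of 6.11. ACSL5, an acyl-CoA synthetase, read 9.21, 8.69 and 189.7 CPM under TSA and 90.5, 0.323 and 199.5 CPM under GSK126, a gap of 6.04. CHAC1, given above, had a gap of 5.97. None of these 6 genes was called over the 3 lines, and they are the widest of 238 genes that differed by at least 1 log2 in opposite directions in 2 lines.

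In addition, 4 lists had medians of opposite sign in different lines, also without a test of the difference. The gap between the most opposite lines was 2.42 log2 for mitosis, 1.66 for DNA replication, 1.36 for sterol sensing and uptake and 1.36 for gut markers. For mitosis and DNA replication MHCC97H lay farthest below 0 and A549 farthest above it, whereas for sterol sensing and uptake HCT116 was the line below 0.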

How the results depend on the processing

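Counts of called genes stayed within 1.5 times of 2490 higher and 2411 lower with RLE size factors (2573 and 2350), without a filter on low counts (2348 and 2302), with at least 10 CPM in 3 libraries (1981 and 1739), with DESeq2 (3093 and 2849) and without the S2101 library of A549 (1974 and 1939). Without the pairing by cell line (no replicate block) 8 genes were called higher and 6 lower, and from the 6 libraries alone 101 and 63. Leaving out each line gave 0 to 2657 genes higher and 0 to 2839 lower, with the lowest counts without A549, and 537 and 551 without MHCC97H. Leaving out the GSK126 library of A549, an alternative chosen after seeing the data, gave 968 and 1225.

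Of 153 named called genes, none changed sign under any of these 11 alternatives. Those tested kept their call in 153 of 153 cases with RLE factors, 151 of 153 without a filter, 108 of 115 at 10 CPM, 148 of 153 with DESeq2, 141 of 152 without the S2101 library of A549, 143 of 149 without HCT116, 98 of 153 without the GSK126 library of A549, 77 of 146 without MHCC97H, 38 of 150 from the 6 libraries, 1 of 148 without the block, and 0 of 141 without A549. DESeq2 lost MT3, WNT1, MAGEA1, CCNA1 and THSD7A.

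Genes that changed sign had no call over all lines. Without the block, STC1 stood at -0.68, CPLX2 at -2.05, GJA1 at -2.08 and ACSL5 at -0.47 log2, and from the 6 libraries CPLX2 at -1.18 and ACSL5 at -0.039. Without MHCC97H, LIPG stood at -0.44 and CHAC1 at -0.72. Without A549, ACSL5 stood at -1.06 and SUZ12 at -0.22, and SUZ12 stood at -0.10 without the GSK126 library of A549. Without HCT116, CPLX2 stood at -2.66 (adjusted p = 0.00413, edgeR). The cause was not tested.

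The difference in detected genes stayed positive, at 1492.0 for 0.1 CPM, 524.7 for 5 CPM, 1101.7 with libraries thinned to the smallest total, 927.0 for protein-coding genes, and 1077.5 to 1165.5 without a line. Genes seen under TSA alone in all 3 lines rose from 9 to 24 with limits of 0.5 and 2 CPM. Depth limits statements on genes near 3 reads per library.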
